A study of Capra hircus with 9 samples.

Results

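This account describes what changed in the transcriptome of goat fetal fibroblasts (GFFs) when the long noncoding RNA lncRNA3720 was overexpressed. The members are the features of the deposited fibroblast table with a mean of at least 0.5 FPKM (fragments per kilobase of a feature, scaled to the depth of the library) over the 6 fibroblast libraries, which were 13094 of the 19781 features listed. Among them, 8000 reached a mean of 5 FPKM and are called well-expressed below. The other 6687 features lay under 0.5 FPKM and were not tested.

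The study asked which lncRNAs act during embryonic genome activation in goats, and used the fibroblasts to look for genes that respond to lncRNA3720. Of its 9 libraries, the 6 from GFFs are analysed here. GFF-control (3 libraries) was transfected with empty pcDNA3.1(+), and GFF-lncRNA3720 (3 libraries) with the same vector carrying lncRNA3720 cDNA behind the CMV promoter. The labels give Lipofectamine 3000 for both groups, and the methods give harvest at 36 h after transfection, so that the vector and the reagent are shared by all 6 libraries. Expression from the plasmid was transient, and CMV is a viral promoter that is active in most cell types. The sample labels give ear margin as the tissue, whereas the methods of the study derive GFFs from 1 female Saanen fetus, so the origin of the cells is stated in 2 ways. No source says that the 3 libraries of a group came from separate cultures, and p-values then measure the spread between these libraries, which may be technical.

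Long noncoding RNAs are transcripts that are not translated into protein. Those that stay in the nucleus can act on chromatin or on transcription near their own locus or elsewhere. Fibroblasts are connective tissue cells that build the extracellular matrix, and they are the usual donor cells in somatic cell nuclear transfer. Embryonic genome activation is the stage at which the embryo starts to transcribe its own genome, after a period in which maternal RNA supplies its needs.

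The deposited table names its features by a gene number, and none of the 19781 features could be matched to a symbol in the tables used here (0 matched). For this reason the level of lncRNA3720 itself, the markers of fibroblasts and of other cell types, and lists of histone or interferon genes were not analysed here, and the genes below are described by number, length and level. Length is the feature length that the FPKM values imply. RNA was measured in bulk, so that a change in a fraction of the cells and a smaller change in every cell cannot be told apart.

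Depth differed between the groups, with 10839690 to 11031765 in GFF-control and 11795857 to 13567340 fragments per library in GFF-lncRNA3720. The GFF-lncRNA3720 libraries were thus the deeper ones, and fewer features were detected in them, with 17013 to 17076 features above 0, against 17314 to 17376 in GFF-control. The number of features at 0.5 FPKM or more was 12845 to 12916 in GFF-lncRNA3720 and 13245 to 13271 in GFF-control, and these ranges did not overlap. At 5 FPKM or more the ranges did overlap, with 7934 to 7965 features against 7904 to 7999. In exact two-sided permutation tests of 3 against 3 libraries, the smallest p possible is 0.1, which the first 2 differences reached, and the last gave p = 0.8 (Benjamini-Hochberg adjusted p = 0.112 and 0.8 over the 9 library values tested).

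Overexpression of lncRNA3720 was accompanied by many small changes and few large ones. At a Benjamini-Hochberg adjusted p under 0.05 from limma, 6753 of 13094 features differed (51.6%), of which 3907 were higher and 2846 lower in GFF-lncRNA3720. A differentially expressed gene (DEG), which must also change more than 2-fold, was called for 820 features (6.26%). Of these, 357 were upregulated (2.73%) and 463 were downregulated (3.54%). In 7885 of the features tested (60.2%) all libraries of one group lay above all libraries of the other. With quantile normalization, which gives all libraries the same distribution, the balance turned to 410 upregulated and 352 downregulated DEGs.

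In the deposited values, the balance of DEGs was not the same in well-expressed and weakly expressed features. Among the 8000 well-expressed features, 316 were DEGs (3.95%), 196 upregulated and 120 downregulated. Among the 5094 features between 0.5 and 5 FPKM there were 504 DEGs (9.89%), 161 upregulated and 343 downregulated. As deposited, upregulated DEGs thus outnumbered downregulated ones at the higher levels and were outnumbered at the lower levels. Of the 343 weakly expressed downregulated DEGs, 124 had a mean under 0.5 FPKM in GFF-lncRNA3720 and passed the filter through their control values, as did 43 of the 161 upregulated ones through GFF-lncRNA3720. Under quantile normalization the balance at the lower levels turned, to 248 upregulated and 204 downregulated DEGs, and the well-expressed DEGs were 162 upregulated and 148 downregulated.

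**Figure D1:**
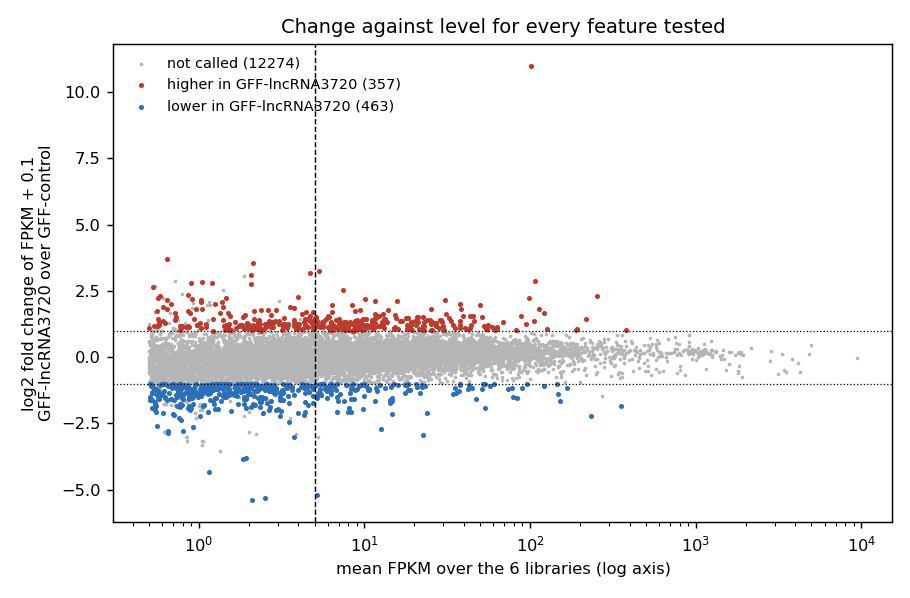
Each point is 1 of the 13094 features tested, placed by its mean FPKM over the 6 libraries (log axis) and its log2 fold change of FPKM + 0.1 in GFF-lncRNA3720 over GFF-control. Red and blue points are the 357 upregulated and 463 downregulated DEGs, the dotted lines mark a 2-fold change, the dashed line marks 5 FPKM, and 1 feature stands alone at 11.00, a value that depends on the 0.1 added since its controls are at 0.

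The shift ran through the whole range of levels. Between 0.5 and 1 FPKM, 36 of 1203 features were upregulated DEGs and 124 were downregulated, with a median log2 fold change of -0.23 over all features of the class. Of the 124, 114 had a mean under 0.5 FPKM in GFF-lncRNA3720 and passed the filter through their control values. Of the 36, 33 had a control mean under 0.5 FPKM and passed it through GFF-lncRNA3720. The DEGs of this class were thus largely set by the filter. Between 5 and 10 FPKM, 70 of 2485 were upregulated and 55 downregulated, with a median of 0.02. Between 20 and 50 FPKM, 50 of 1969 were upregulated and 19 downregulated, with a median of 0.14. At 100 FPKM and over, 11 of 604 were upregulated and 7 downregulated, with a median of 0.18. The median thus rose with level in each step from the lowest class to the highest, while the share of DEGs fell from 13.3% in the lowest class to 2.98% in the highest.

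The precision of the measurement changed over the same range. The median SD of log2(FPKM + 0.1) within GFF-control was 0.28 between 0.5 and 1 FPKM and 0.04 at 100 FPKM and over, and within GFF-lncRNA3720 it was 0.29 and 0.03. At the adjusted p limit (limma), 287 of 1203 features differed in the lowest class, 64 higher and 223 lower, and 503 of 604 in the highest, 380 higher and 123 lower. The medians also depended on the scaling. Between 0.5 and 2 FPKM the median log2 fold change was -0.20 as deposited and 0.01 after quantile normalization, and for the well-expressed features it was 0.10 and 0.01.

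**Figure D2:**
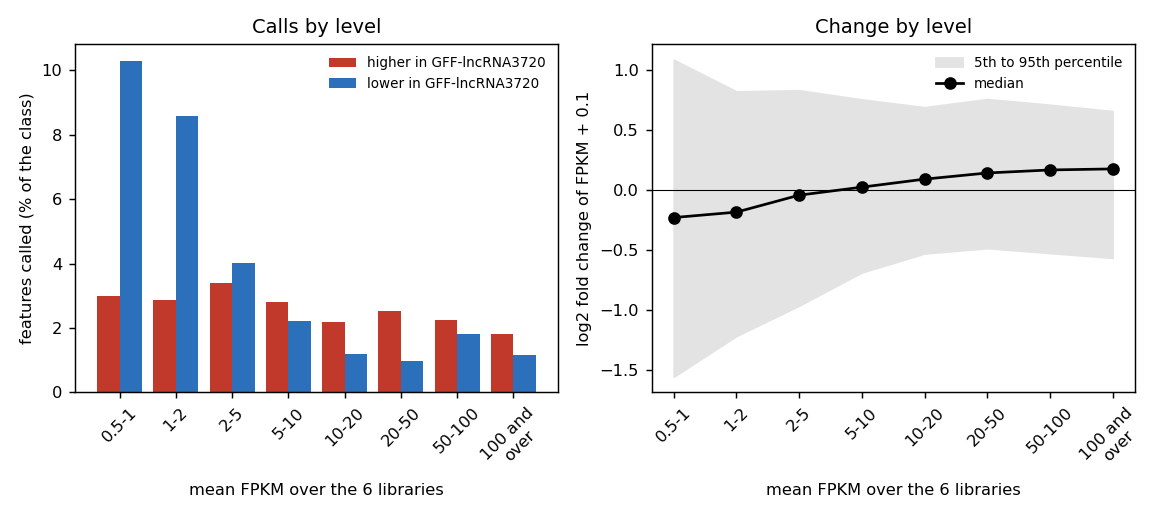
The left panel gives the share of features called as DEGs (% of each class of mean FPKM), upregulated in red and downregulated in blue. The right panel gives the median log2 fold change of FPKM + 0.1 in each class (points) with the 5th to 95th percentiles (band), and its median runs from -0.23 in the lowest class to 0.18 in the highest.

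Among the well-expressed DEGs, large changes were few. The median log2 fold change was 1.26 over the 196 upregulated DEGs and -1.19 over the 120 downregulated DEGs, and a 4-fold change was passed by 11 of the former and 9 of the latter. The groups did not overlap in any of the 196 upregulated DEGs nor in 119 of the 120 downregulated DEGs. Over all features tested the share was 60.2%. The calls rest on the same values, so this adds no separate support. All 196 upregulated DEGs rested on at least 60 fragments over the 6 libraries, and 3 of the downregulated ones did not.

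The feature with the largest increase was gene21344 (1040 bases). It was at 0 FPKM in all 3 GFF-control libraries and at 209.8, 204.4 and 198.2 FPKM in GFF-lncRNA3720. The 3 GFF-lncRNA3720 values came from 2960, 2682 and 2431 fragments and lay close together, and no fragment was recorded in any control library. Against a floor of 3 fragments in the summed controls, which covers counting error only, the increase was at least 2330-fold (limma adjusted p = 2.1e-11). Of the 29 features at 0 in a whole group, it alone held 30 or more fragments in the other group. Of the 14 features tested within 10 numbers on either side of it, 6 differed at the adjusted p limit (limma), against 51.6% of all features, and 0 were DEGs, against 6.26%. Their log2 fold changes ran from -0.57 to 0.31. Whether gene21344 is lncRNA3720 expressed from the plasmid or a gene of the cells was not tested, since no name is tied to its number.

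The second largest increase among well-expressed features was that of gene11763 (1785 bases). It stood at 1.09, 0.966 and 0.762 FPKM in GFF-control and at 9.25, 9.99 and 9.83 FPKM in GFF-lncRNA3720. All GFF-lncRNA3720 libraries were above all control libraries, since only DEGs without overlap were chosen. The log2 fold change was 3.25 (SE 0.13, adjusted p = 8.3e-07 from limma).

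Among well-expressed DEGs, the 2 largest decreases belonged to very short features with few fragments. For gene27172 (97 bases) the values were 12.4, 9.36 and 7.48 FPKM in GFF-control and 0, 0 and 1.75 FPKM in GFF-lncRNA3720, from 31 fragments against 2. The log2 fold change was -5.19 (SE 1.0, adjusted p = 0.0029 from limma). For gene7335 (88 bases) they were 35.6, 48.5 and 34.0 FPKM against 2.51, 6.30 and 7.71 FPKM, from 114 fragments against 18 (log2 fold change -2.94, SE 0.36, adjusted p = 2.6e-04 from limma). Neither pair of groups overlapped, since only DEGs without overlap were chosen. The counts behind the low values were in single figures per library. Features this short were rare among the well-expressed ones, with 32 under 200 bases. Of these, 1 was upregulated (3.1%, against 2.45% of all well-expressed features) and 6 were downregulated (18.8%, against 1.5%). Of those 6, 3 had fewer than 60 fragments over the 6 libraries.

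**Figure D3:**
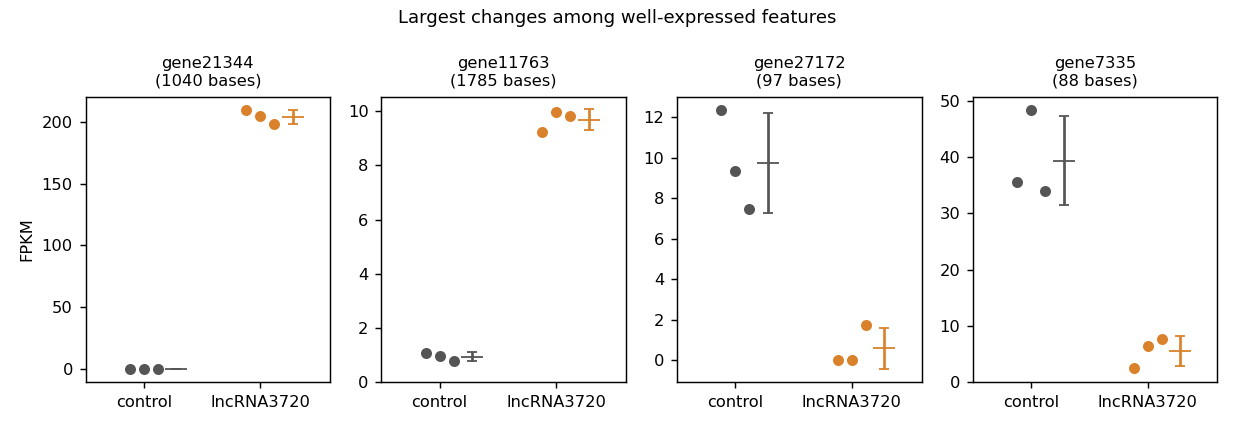
FPKM of the 2 largest increases and the 2 largest decreases among well-expressed DEGs, with 1 point per library and the mean ± SD of the 3 libraries of each group beside the points. gene21344 goes from 0 to about 204.1 FPKM, gene11763 from 0.938 to 9.69, gene27172 from 9.73 to 0.583 and gene7335 from 39.4 to 5.51 FPKM.

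Changes of abundant transcripts rested on far more fragments. The features in this and the next paragraph were chosen after their values had been seen, as the largest changes after gene21344 among DEGs whose mean reached 100 FPKM. A feature of 627 bases stood at 28.2, 24.8 and 24.3 FPKM in GFF-control and at 190.0, 187.1 and 184.6 FPKM in GFF-lncRNA3720, a log2 fold change of 2.86 (SE 0.06, adjusted p = 8.5e-08 from limma). A feature of 1834 bases went from 77.3, 89.0 and 90.2 FPKM to 416.5, 453.6 and 403.8 FPKM, a log2 fold change of 2.31 (SE 0.07, adjusted p = 2.8e-07 from limma). In both, the lowest GFF-lncRNA3720 library was more than 4 times the highest control library. Features of 660 and 330 bases followed, with means of 50.01 ± 4.77 and 58.3 ± 3.55 FPKM in GFF-control and 177.5 ± 12.1 and 185.2 ± 12.1 FPKM in GFF-lncRNA3720 (SD, n = 3).

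In the other direction, a feature of 1567 bases stood at 391.7, 370.8 and 387.2 FPKM in GFF-control and at 89.4, 79.2 and 76.4 FPKM in GFF-lncRNA3720 (log2 fold change -2.23, SE 0.06, adjusted p = 1.5e-07 from limma). A feature of 2240 bases went from 556.6, 544.7 and 549.7 FPKM to 159.1, 157.0 and 143.4 FPKM (log2 fold change -1.85, SE 0.04, adjusted p = 1.2e-07 from limma). These 2 kept narrow ranges in both groups. A feature of 3147 bases did not: it stood at 109.8, 119.5 and 503.0 FPKM in GFF-control and at 44.97, 66.3 and 72.9 FPKM in GFF-lncRNA3720 (log2 fold change -1.64, SE 0.52, adjusted p = 0.029 from limma). GFF-control replicate 3 was more than 4 times either of the other controls, and without it the log2 fold change was -0.93, under the 2-fold limit. The call was also lost when any 1 of the GFF-lncRNA3720 libraries was left out, with limma adjusted p between 0.052 and 0.092.

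Change also varied with the length of the feature. Among well-expressed features the median log2 fold change was 0.15 under 1000 bases, 0.12 between 2000 and 3000 bases, 0.01 between 5000 and 8000 bases and -0.03 at 8000 bases and over. Under 3000 bases, 131 of 4495 well-expressed features were upregulated DEGs and 55 were downregulated, whereas at 5000 bases and over 11 of 1367 were upregulated and 31 downregulated. Among well-expressed DEGs, upregulated ones thus outnumbered downregulated ones under 3000 bases and were outnumbered at 5000 bases and over. Over all 1367 features of 5000 bases and over the median was -0.0008. Of these, 378 were higher and 399 lower at the adjusted p limit (limma). The 32 well-expressed features under 200 bases had a median of -0.25. Between 0.5 and 5 FPKM the medians of the 6 length classes lay between -0.13 and -0.08. Upregulated and downregulated DEGs there numbered 34 and 35 under 1000 bases, 22 and 50 between 5000 and 8000 bases, and 3 and 15 at 8000 bases and over. Within that range, features of 0.5 to 2 FPKM had a median of -0.08 under 1000 bases and -0.21 at 8000 bases and over, and features of 2 to 5 FPKM had -0.11 and -0.08.

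The fall of the median with length was steepest among the most abundant transcripts. At 50 FPKM and over, the median log2 fold change was 0.17 for the 311 features under 1000 bases and -0.28 for the 23 features of 8000 bases and over. Of those 23, 16 were lower and 6 higher in GFF-lncRNA3720 at the adjusted p limit (limma), and 0 changed 2-fold. They took 7.55%, 7.57% and 7.44% of all fragments in GFF-control and 5.87%, 5.70% and 5.66% in GFF-lncRNA3720. Features of 5000 bases and over, at any level, took 31.5% to 32.5% of the fragments in GFF-control and 27.3% to 27.9% in GFF-lncRNA3720. The fragment-weighted mean length of the features was 4175 to 4243 bases in GFF-control and 3934 to 3964 bases in GFF-lncRNA3720. These ranges did not overlap (exact two-sided permutation p = 0.1 for each, the smallest possible, with 3 libraries a group). Under quantile normalization the median of the 23 features was -0.42, that of all features at 50 FPKM and over went from 0.17 to 0.03, and that of well-expressed features under 3000 bases went from 0.14 to 0.04. RNA integrity was not given for these libraries in the sources used here, and its part in the relation with length was not tested.

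**Figure D4:**
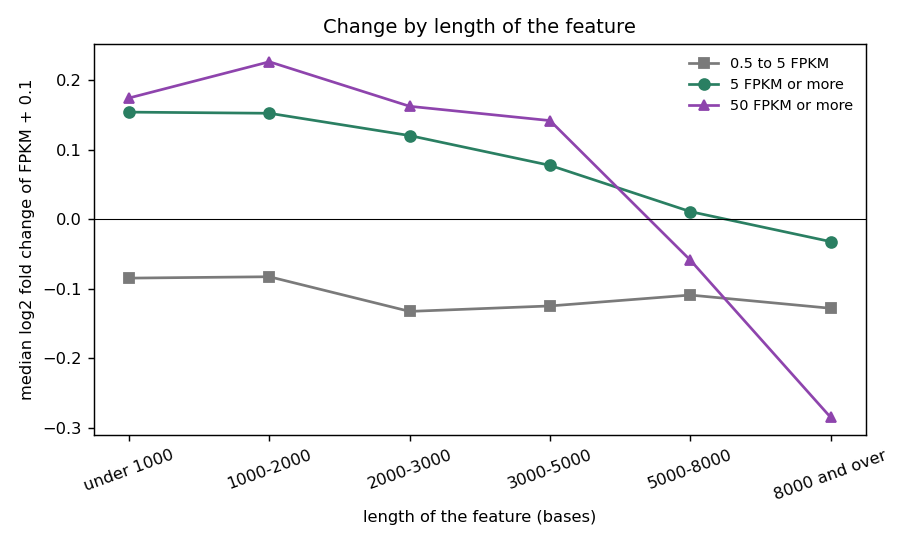
Median log2 fold change of FPKM + 0.1 in GFF-lncRNA3720 over GFF-control by length of the feature, for features of 0.5 to 5 FPKM (squares), of 5 FPKM or more (circles) and of 50 FPKM or more (triangles), each point covering 23 to 2138 features. The triangles fall from 0.17 under 1000 bases to -0.28 at 8000 bases and over, and the squares stay between -0.13 and -0.08.

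Neighbouring gene numbers sometimes changed together. A run was defined as at least 3 successive tested genes called in the same direction, each at most 3 numbers after the last. No source states that the numbers follow the order of genes on the chromosomes, and runs are found from the calls, so they are given as a description without a test. There were 8 runs holding 25 genes, 5 of them upregulated (16 genes) and 3 downregulated (9 genes). Only 2 of the 25 genes were well-expressed, and no run was found among well-expressed genes alone (0 runs). Without GFF-lncRNA3720 replicate 3 there were 5 runs, of which 1 was upregulated and 4 were downregulated, so that most upregulated runs depended on that library. Upregulated runs numbered 3 without GFF-lncRNA3720 replicate 1, and also without replicate 2. Downregulated runs numbered 5 without GFF-control replicate 3, and 2 without GFF-control replicate 1 or without GFF-control replicate 2.

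The longest upregulated run was numbers 22109 to 22113, with 4 genes of 773 to 2920 bases and log2 fold changes of 1.09 to 1.26. Their summed level was 7.99, 7.47 and 6.71 FPKM in GFF-control and 14.5, 17.4 and 19.9 FPKM in GFF-lncRNA3720, 2.34-fold higher. The limma adjusted p of the 4 genes ran from 7.6e-05 to 0.021, and the definition of a run requires it to be under 0.05. The groups did not overlap in any of the 4, nor in 60.2% of all features tested. Of the 4, 2 lost their call when 1 library was left out, 1 of them without replicate 2 or 3 of either group and the other without replicate 3 of either group. The next was numbers 6821 to 6825, with 3 genes of 1053 to 1226 bases and log2 fold changes of 1.82 to 2.34. Their summed level went from 18.9, 19.8 and 16.6 FPKM to 74.0, 69.4 and 60.6 FPKM, 3.69-fold higher, with limma adjusted p between 2.2e-06 and 0.0029. Most of that sum belonged to 1 gene of 1053 bases, which went from a mean of 16.9 to 59.9 FPKM.

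The run at 6821 to 6825 was part of a wider stretch, which was chosen after its values had been seen. Of the 6 genes tested between numbers 6815 and 6825 (9 listed), 5 were upregulated DEGs, against 2.73% of all features tested. The stretch was drawn to start and end at upregulated DEGs, so this count does not support a difference of the stretch from the rest. The mean levels of the 5 were 0.864 to 218.1 FPKM. The lowest of them, also a gene of the run, had a control mean of 0.260 FPKM and passed the filter through its GFF-lncRNA3720 values. The most abundant of them, with 1561 bases, stood at 115.4, 141.8 and 96.2 FPKM in GFF-control and at 347.5, 318.1 and 289.6 FPKM in GFF-lncRNA3720. Together the 5 went from 147.1, 174.4 and 121.3 FPKM to 465.4, 424.3 and 387.4 FPKM. The exception was the shortest of the 6, with 366 bases and 13 fragments in all, whose log2 fold change was -0.12 (SE 0.60, adjusted p = 0.88 from limma).

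Many upregulated genes lay between numbers 22104 and 22281, a stretch chosen after its values had been seen that holds 4 of the 5 upregulated runs. Of its 62 listed features 40 were tested, and 19 of these were upregulated DEGs (47.5%, against 2.73% of all features tested) and 0 were downregulated. The mean was higher in GFF-lncRNA3720 for 33 of the 40. Of its 17 tested features under 600 bases, 11 were upregulated DEGs, against 27 of 562 (4.80%) over the whole table. The 19 DEGs summed to 25.6, 21.4 and 19.6 FPKM in GFF-control and to 59.4, 62.5 and 70.7 FPKM in GFF-lncRNA3720. The counts were small, however: 11 of the 19 had fewer than 60 fragments over the 6 libraries, and 12 of the 19 had a control mean under 0.5 FPKM and passed the filter through their GFF-lncRNA3720 values, so that the counts above do not support a difference of this stretch from the rest. With a filter of at least 60 fragments, chosen after the data had been seen, 2 upregulated runs were left in the whole table.

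All 3 downregulated runs held 3 genes. In the 2 with the larger median changes, the genes had control means of 0.885 to 8.35 FPKM. Numbers 15738 to 15742 held 3 genes of 854 to 6282 bases with log2 fold changes of -1.98 to -1.48. The gene of 6282 bases had a mean of 0.885 FPKM in GFF-control and 0.203 FPKM in GFF-lncRNA3720. It passed the filter through its control values, and without it there would be no run here. The 3 genes summed to 10.7, 9.59 and 7.24 FPKM in GFF-control and to 1.95, 3.04 and 2.69 FPKM in GFF-lncRNA3720, 3.59-fold lower (limma adjusted p between 4.6e-04 and 0.0018). Numbers 17548 to 17552 held 3 genes of 1112 to 3978 bases with log2 fold changes of -2.06 to -1.19. Their sum went from 18.9, 17.7 and 16.6 FPKM to 6.51, 5.88 and 5.88 FPKM, 2.91-fold lower (limma adjusted p between 2.0e-05 and 1.5e-04). In neither run did the groups overlap for any gene, nor did they in 60.2% of all features tested. The genes of a run are chosen by calls on the same values, which largely fixes this. The remaining downregulated run, numbers 4388 to 4392, had log2 fold changes of -1.36 to -1.003 (limma adjusted p between 5.6e-04 and 0.021). Its gene at -1.003 lost its call without replicate 1, 2 or 3 of GFF-control.

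**Figure D5:**
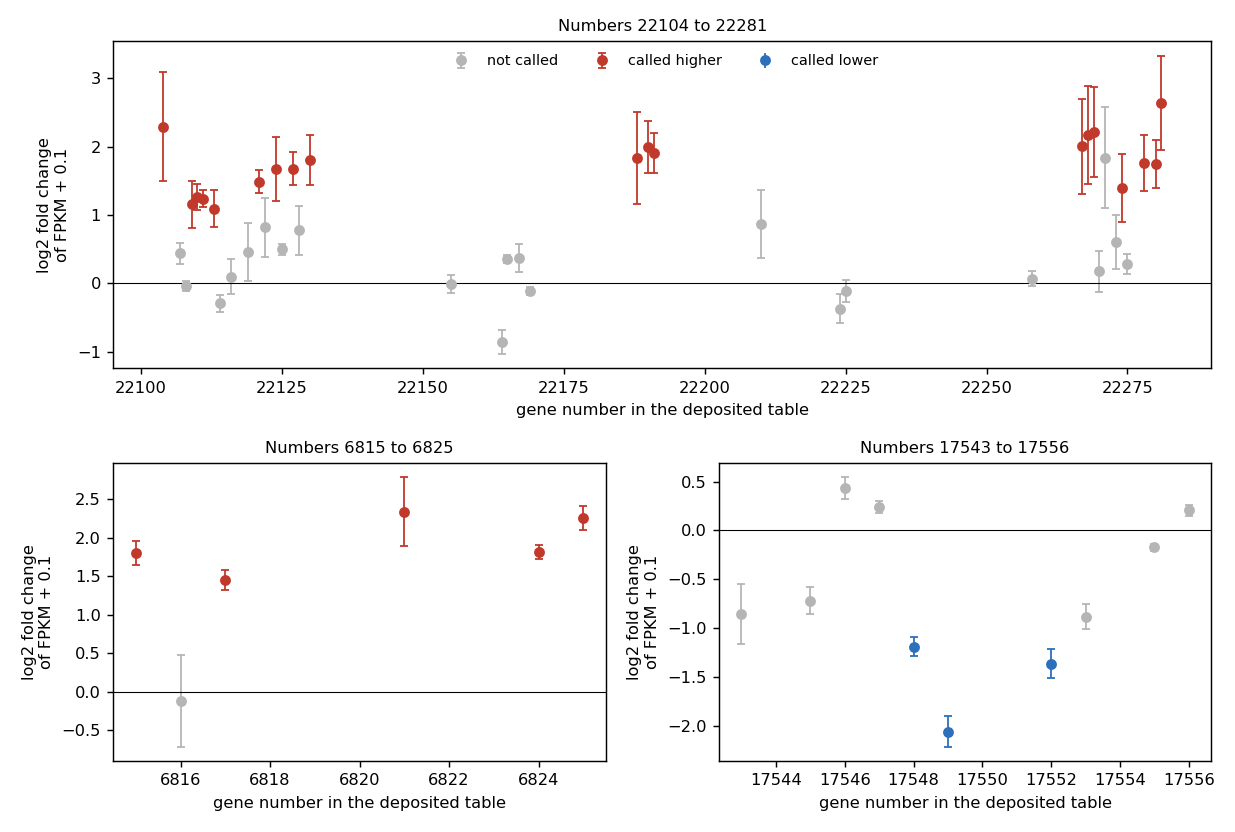
Log2 fold change of FPKM + 0.1 with its SE for each tested gene by gene number, in the stretches 22104 to 22281 (19 of 40 upregulated DEGs), 6815 to 6825 (5 of 6) and 17543 to 17556 (3 downregulated DEGs of 10). Red points are upregulated DEGs, blue points are downregulated DEGs and grey points are other tested genes. Over all features tested, 2.73% were upregulated and 3.54% downregulated DEGs, and the stretches were chosen from the calls.

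The share of genes with a DEG as a neighbour was counted over the whole table, as a description without a test. Among the upregulated DEGs with a tested neighbour within 3 numbers, 48 of 347 (13.8%) had an upregulated one, against 541 of 12402 (4.36%) of the genes that were not upregulated. For downregulated DEGs it was 73 of 447 (16.3%), against 699 of 12302 (5.68%). Of all 357 upregulated DEGs 44, and of all 463 downregulated DEGs 124, had a mean under 0.5 FPKM in the group where they were lower. They passed the filter through the other group. Among well-expressed genes alone there were only 4 pairs of neighbours both upregulated and 4 both downregulated. Whether the shares above hold for well-expressed genes was not tested. Across 11441 pairs of successive tested genes, which share the same 6 libraries and are not independent replicates, Pearson's r between the log2 fold changes of the pair was 0.12, and it was 0.08 over 5739 pairs of well-expressed genes. Log2 levels of the same neighbours had an r of 0.06.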

How the data were processed

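The 6 GFF libraries were analysed from a table of FPKM per gene, as deposited by the authors. Per the labels, the submitters' processing notes name TopHat2 2.0.12, Bowtie2 2.2.3, Cufflinks 2.1.1 and Cuffdiff without their roles. The genome build and annotation are not given in the sources used here. Embryo tables were not used, and 0 columns lacked a sample. The test for features with a mean of at least 0.5 FPKM was limma 3.58.1 (R 4.3.3; lmFit, then eBayes with trend) on log2(FPKM + 0.1) with Benjamini-Hochberg adjustment. Fold changes are on this scale, which understates changes of low genes. A DEG passed an adjusted p of 0.05 and an absolute log2 fold change of 1, the limits that the study states, and no test is given for this table in the sources used here.

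Fragments and lengths were recovered with Python 3.11.15 and numpy 2.4.6 as the smallest whole numbers that give the FPKM of all 6 libraries within 0.0001 fragments, which succeeded for all 19781 features. Fragments and lengths are lower limits where a feature's counts share a common factor. For 390 features such a factor was restored so that the length came out whole. Recovered fragments made up 99.3% to 99.4% of the totals that the FPKM values imply.

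The members, classes and lists were chosen with earlier results of these data known. Genes given by number are the 2 largest increases and 2 largest decreases among well-expressed DEGs whose groups do not overlap, and runs are the 2 longest of each direction, ties being broken by the median change. Recovery, test and run search were tested on simulated data. Alternatives were other pseudocounts, filters, scalings, limits, variance priors, run definitions, voom on the recovered fragments, a replicate block and leaving out single libraries. Lists of cell type, histone and interferon genes need names and were not analysed here.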

Additional observations from a re-analysis of the deposited data

How the results depend on the processing

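The counts of DEGs depended on the limits set and on the pseudocount, their balance also on the scaling, and the runs on low genes. With a pseudocount of 1 there were 359 DEGs (210 upregulated, 149 downregulated) and 0 runs. Without a filter 719 were downregulated. A minimum mean of 1 FPKM left 2 runs, and one of 5 FPKM left 318 DEGs (196 and 122) and 0 runs. A 1.5-fold limit gave 2184 DEGs (990 and 1194), 982 of them well-expressed (603 and 379), and 37 runs. A log2 limit of 2 gave 68 (31 and 37), 20 (11 and 9) and 1 run. A step of exactly 1 number gave 2 runs, at least 4 genes gave 1, and well-expressed genes alone gave 0. Quantile normalization turned the median log2 fold change between 0.5 and 2 FPKM from -0.20 to 0.0076.

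Leaving out 1 library at a time gave 812 to 860 DEGs, 314 to 322 well-expressed ones and 5 to 9 runs. The lowest number of runs was that without GFF-lncRNA3720 replicate 3. No source states that the replicate numbers pair the libraries. Correlations of deviations lay between -0.10 and 0.01 for same-numbered libraries, which with 3 libraries a group cannot decide it. With the replicate block there were 318 well-expressed DEGs (196 and 122) and 8 runs. Over the 40 genes followed through the alternatives, no direction turned, and 64 of 678 values lost their call, among them 7 of the feature of 3147 bases. The 9 of these genes with under 60 fragments held 34 of the 64. No name or sequence is tied to a gene number here, and 3 libraries a group cannot give an exact permutation p under 0.1.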
